A study of Mus musculus with 6 samples.

Results

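Adrenergic receptor and adenylyl cyclase signalling was followed in mouse heart through 9 genes, chosen by symbol from a table of 54352 genes. They are the receptors Adrb1, Adra1a and Adra1b, the adenylyl cyclases Adcy1, Adcy5 and Adcy6, the receptor kinases Grk2 and Grk5, and the G protein subunit Gnb3. All 9 were present and all 9 passed the filter on low values. RNA of primary heart tissue was sequenced in 6 libraries, in 3 groups of 2. Control mice were labelled normal, ate regular lab chow and carried no transgene. Both other groups were C57BL/6 mice with type 2 diabetes (T2D), induced when they were 12 weeks old. They were fed food in which fat gave 60% of calories, were injected once with the beta cell toxin streptozotocin (75 mg/kg), and were judged diabetic at 20 weeks of diet. An adeno-associated virus (AAV) was given by jugular vein, 16 to 18 weeks after streptozotocin, and hearts were studied 4 weeks later, 5 to 6 months after induction. The AAV was empty in the group called T2D empty vector. In the group called T2D dnMCUb it encoded a FLAG-tagged dominant negative form of MCUb, which is part of the calcium uniporter of mitochondria. Diet, streptozotocin and AAV all differ between the control group and both T2D groups, so their parts cannot be told apart. No age or strain is given here for the control mice, so their match to the T2D mice in these was not judged. The sources used here do not name the promoter of the transgene or the cells it reached. Whether the 2 libraries of a group come from different mice is not stated in the labels, so each p-value reflects only variation among these libraries, which may be technical.

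Noradrenaline and adrenaline speed and strengthen the heartbeat mainly through the beta 1 receptor, Adrb1. It couples through the stimulatory G protein to adenylyl cyclase, which makes cyclic AMP, and cyclic AMP activates protein kinase A (PKA). The alpha 1 receptors, Adra1a and Adra1b, couple instead to the Gq protein and phospholipase C and are known for their part in myocyte growth. Receptor kinases phosphorylate active receptors, which are then bound by arrestins and uncoupled. Heart failure is known for lower beta 1 receptor and higher Grk2 levels.

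Promoter sequence of the beta 1 receptor gene is shown with that of the cyclase and the kinase gene whose levels differed most between T2D and control hearts. RefSeq entries on GRCm38.p6 were found for 5 of the 9 genes, with 6 start sites between them. The 250 bases before the start are printed 5′ to 3′ on the gene's own strand. Capitals mark matches on either strand to the half-site of the cyclic AMP response element (TGACG), the E-box bound by clock factors (CACGTG) or the GC box (GGGCGG). The windows are chr11:7063183-7063432 on the plus strand for Adcy1, chr19:60889499-60889748 on the plus strand for Grk5 and chr19:56721867-56722116 on the plus strand for Adrb1.
Adcy1: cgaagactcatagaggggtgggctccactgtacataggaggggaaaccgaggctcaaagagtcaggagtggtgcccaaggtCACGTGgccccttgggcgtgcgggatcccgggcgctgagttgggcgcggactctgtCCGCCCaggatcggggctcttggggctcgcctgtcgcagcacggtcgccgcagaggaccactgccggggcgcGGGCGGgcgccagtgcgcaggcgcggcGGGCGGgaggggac
Grk5: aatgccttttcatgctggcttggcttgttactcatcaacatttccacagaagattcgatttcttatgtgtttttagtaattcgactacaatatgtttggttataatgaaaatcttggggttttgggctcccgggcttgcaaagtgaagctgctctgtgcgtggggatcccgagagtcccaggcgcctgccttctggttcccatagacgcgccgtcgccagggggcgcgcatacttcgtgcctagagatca
Adrb1: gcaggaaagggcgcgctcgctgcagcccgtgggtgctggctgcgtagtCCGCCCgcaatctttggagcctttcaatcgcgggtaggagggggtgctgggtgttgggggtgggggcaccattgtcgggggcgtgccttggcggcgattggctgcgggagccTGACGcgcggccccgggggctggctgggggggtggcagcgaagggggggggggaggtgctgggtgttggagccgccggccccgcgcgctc
The Adcy1 window held 3 GC boxes and 1 E-box in 71.2% G and C. In the Adrb1 window, 1 half-site and 1 GC box stood in 74.0% G and C. None of the motifs was found in the Grk5 window, which had 49.6% G and C. Across 32851 windows of this length the median was 52.4% G and C. The half-site occurred in 17.8% of them, the E-box in 6.02% and the GC box in 32.7%. The full response element (TGACGTCA), which contains the half-site, occurred in 1.55%, and in neither the Adcy1, Grk5 nor Adrb1 window. These matches describe letters, not binding sites.

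Values are regularized log (rlog) values on the log2 scale, which the authors deposited. This transformation draws values towards the gene's mean, most strongly for genes with few reads. No counts were in the table, so library depth is unknown. The library T2D dnMCUb 1 stood apart, at 10.8 on the first principal component (46.7% of the variance), where the other 5 libraries lay between -4.42 and 2.69. As the label of heart tissue requires, 8 of 8 markers of ventricular and general myocytes were present, at mean rlog values of 15.9 to 19.3. All 8 were lower in T2D empty vector than in control hearts with no overlap, where 42.4% of all genes were apart in either direction. The median difference of the 8 was -0.17, and none passed the test. Their average deviation from the gene means was 0.16 and 0.11 in the control libraries, -0.02 and -0.04 in T2D empty vector, -0.23 in T2D dnMCUb 1 and 0.03 in T2D dnMCUb 2. For 5 atrial markers it was 0.60 and -0.50 in control, -0.64 and -0.20 with empty vector, and 1.39 and -0.65 with dnMCUb. In bulk tissue fewer cells of a type and less RNA per cell cannot be told apart, and the part of cell composition in the results was not tested. Mcub itself was between 5.42 and 5.62 in all 6 libraries, so its level gives no check of the dnMCUb label.

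Levels were compared between genes per kilobase, as the mean rlog over 6 libraries minus the log2 of the deposited length. Adra1b at 7.44 and Adra1a at 7.36 led the adrenergic receptor genes, and their ranges over the libraries overlapped. Adrb1 followed at 6.79, and Adra1d, a further alpha 1 receptor, was at 4.27. Adrb3, Adra2a and Adra2c were below the filter, a mean rlog of at least 5. Among 10 cyclases Adcy6 was highest, at 9.20. Adcy5 at 7.51 and Adcy9 at 7.44 came next with overlapping ranges, and Adcy1 at 3.80 was the lowest of the 7 that passed the filter. Among the receptor kinases Grk2 was at 8.20, Grk5 at 7.47 and Grk6 at 7.09. With the GENCODE M21 length of its transcript, 6580 in place of 3134 bases, Grk5 came to 6.40 and fell below Grk6 in this order. Gnb3 at 5.51 was the lowest of the 5 beta subunits, which Gnb2 led at 9.88. Adcy1 and Gnb3, which with Grk5 differed most between groups, thus ranked last of the cyclases and beta subunits that passed the filter.

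**Figure D1:**
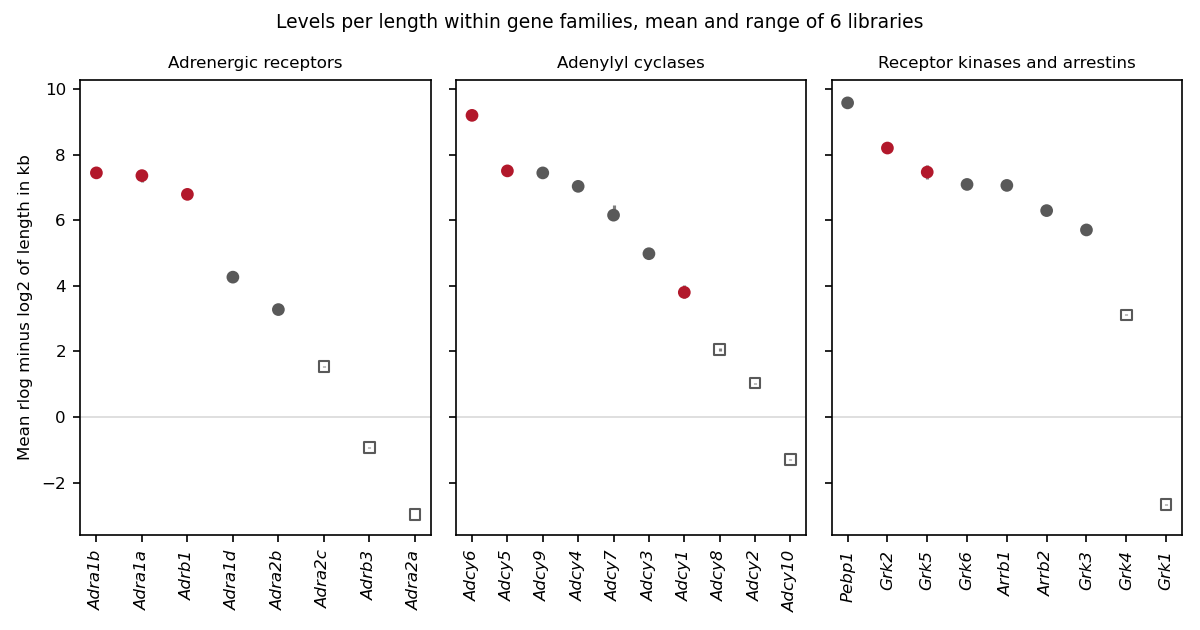
Mean rlog minus the log2 of the length in kilobases (vertical axis) for adrenergic receptors, cyclases, and receptor kinases and arrestins (1 panel each, genes by level), with the range over 6 libraries as a bar, members in red and open squares for genes below the filter. Adcy6 at 9.20 leads the cyclases, and Adcy1 at 3.80 is the lowest of those that passed.

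Among the genes of this pathway, the cyclase Adcy1 and the beta subunit Gnb3 were lower and the kinase Grk5 higher in both diabetic groups than in control hearts. The other 6 members differed less. With limma, a linear model over 13094 genes with Benjamini-Hochberg adjustment, no member passed an adjusted p of 0.05 in T2D empty vector against control. That test called 0% of all genes. At an unadjusted p under 0.05 it called 4 of the 9 members (Adra1a and Grk5 higher, Adcy1 and Gnb3 lower), against 6.13% of all genes. The libraries of the groups stood apart, with no overlap, for all 9 members, 5 higher and 4 lower in T2D, and for 42.4% of all genes. The authors' deposited table gave an adjusted p under 0.05 for 3 members, Adcy1, Grk5 and Gnb3, against 0.255% of the genes with an adjusted p there. The median size of the rlog difference was 0.14 over the 9 members and 0.04 over all genes tested. Members were chosen with earlier results of these data known. Setting their counts and sizes beside all genes, here and below, is therefore a description and not a test. Leaving out a T2D dnMCUb library does not change these differences, only the spread they are tested against. A limma fit of only the groups compared gave adjusted p = 0.0286 for Adcy1 and 0.0444 for Grk5. With a replicate block, limma's adjusted p was 0.956 for both. With each library left out in turn, the differences ran from -0.38 to -0.30 for Adcy1 and from 0.28 to 0.41 for Grk5. An exact permutation test of a single gene was not used, since with 2 libraries against 2 its p cannot go below 0.333.

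**Figure D2:**
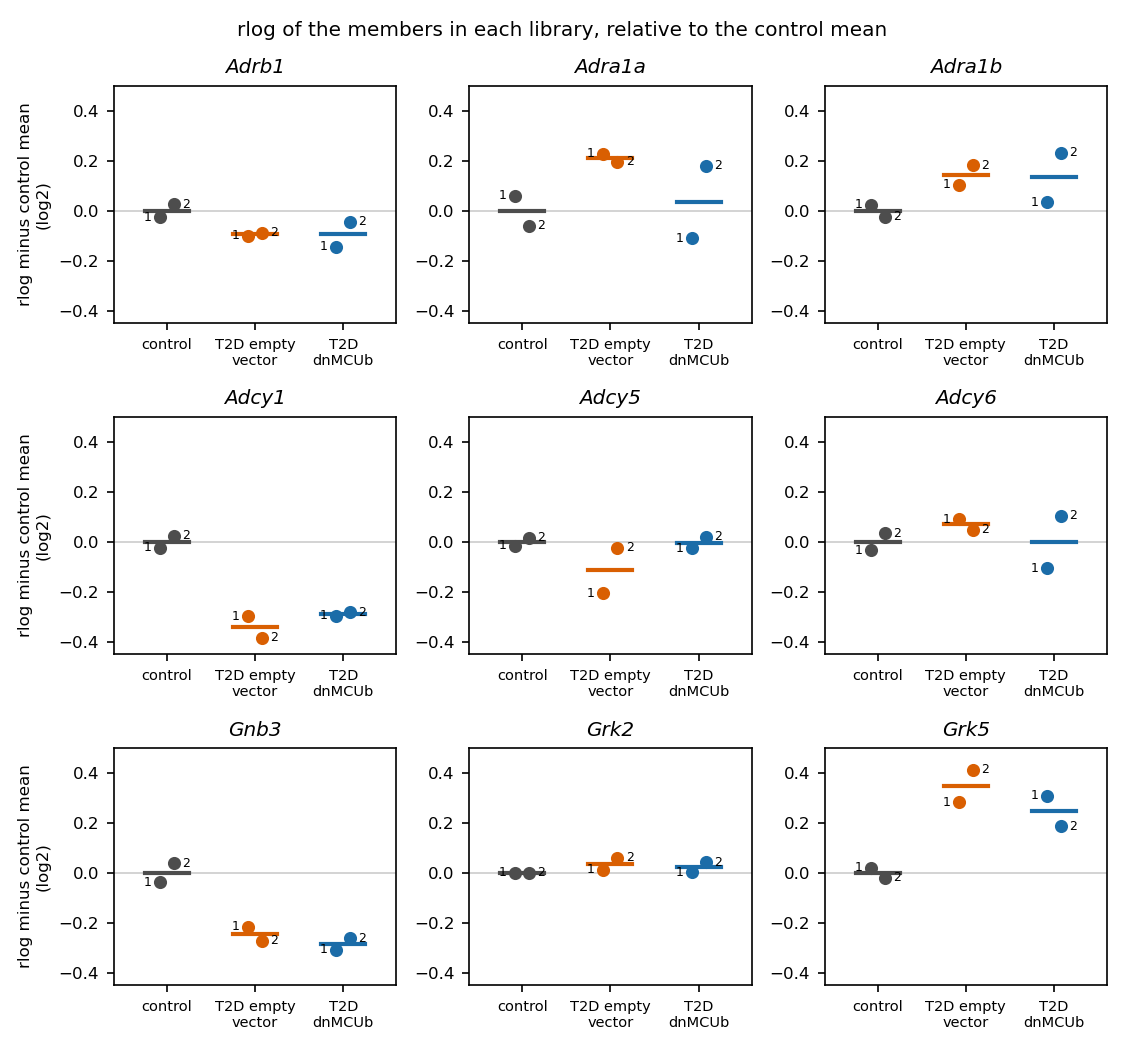
The rlog value minus the control mean (log2 scale, vertical axis) of each of the 9 members in each of the 6 libraries, 1 panel per gene, with points coloured by group and numbered by replicate, and a bar at each group mean. For Adcy1 and Gnb3 all 4 T2D points lie below both control points, and for Grk5 all 4 lie above them.

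Among the cyclases, Adcy1 differed most. Adcy1, a cyclase stimulated by calcium and calmodulin and known mainly from the brain, was at 7.60 and 7.65 in control, 7.32 and 7.24 with empty vector, and 7.33 and 7.34 with dnMCUb. Both control libraries lay above all 4 T2D libraries. The rlog difference of T2D empty vector from control was -0.34 (SE 0.04, n = 2 per group) and did not pass limma's test (adjusted p = 0.312). That p ranged from 0.0281 to 0.996 over the alternatives tried. It was second of 13094 genes by unadjusted p. The authors' deposited table gave a log2 fold change of -1.09 with an adjusted p of 0.00104, a level 0.471 times that of control. For T2D dnMCUb against control the rlog difference was -0.29 (SE 0.04, limma adjusted p = 0.0625, from 0.0247 to 0.505 over the alternatives), and the authors' table gave -0.89 (adjusted p = 0.0344). Conduction system markers, of which 4 of 7 passed the filter, averaged 0.02 and -0.08 from their gene means in control, -0.09 and 0.08 with empty vector, and 0.15 and -0.08 with dnMCUb. The myocyte markers given above did separate the control from the T2D libraries, as Adcy1 did: 7 of 8 were lower without overlap in the pooled comparison. In that comparison 21.9% of all genes were apart in either direction. The part of these cell types in the Adcy1 values was not tested. Adcy1 lies at chr11:7063489-7178506 on the plus strand and has 20 exons.

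Adcy5 and Adcy6 are the calcium-inhibited cyclases that make most cyclic AMP in the ventricle. Adcy5 was at 10.33 and 10.36 in control, 10.14 and 10.32 with empty vector, and 10.32 and 10.36 with dnMCUb. Only the library T2D empty vector 1 was clearly lower, and the difference of T2D empty vector from control was -0.12 (SE 0.06, limma adjusted p = 0.841). Adcy6 was at 11.72 and 11.79 in control, 11.85 and 11.81 with empty vector, and 11.65 and 11.86 with dnMCUb. T2D empty vector lay just above control, by 0.07 (SE 0.08, limma adjusted p = 0.892), while the 2 T2D dnMCUb libraries fell on either side of all the others. An antisense gene, Gm29331, shares 605 exonic bases with Adcy6, and it was listed at 0 in all 6 libraries. Of the other cyclases that passed the filter, Adcy3 was 0.09 higher in T2D empty vector (limma adjusted p = 0.805) and Adcy9 0.04 higher, and neither passed. The lower level in T2D was thus measured for Adcy1 beside more abundant cyclases whose differences were smaller. Within each library Adcy1 minus Adcy6 was -4.13 and -4.15 in control, -4.53 and -4.57 with empty vector, and -4.33 and -4.52 with dnMCUb.

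Gnb3, a G protein beta subunit best known from the cones of the retina, was also lower in both T2D groups. Its values were 6.51 and 6.59 in control, 6.34 and 6.28 with empty vector, and 6.24 and 6.29 with dnMCUb. All 4 T2D libraries lay below both control libraries. The difference was -0.24 in T2D empty vector (SE 0.04, limma adjusted p = 0.435, from 0.0642 to 0.996 over the alternatives). In T2D dnMCUb it was -0.29 (SE 0.04, limma adjusted p = 0.0576, from 0.0170 to 0.498). The authors' deposited table gave log2 fold changes of -1.14 (adjusted p = 0.0357) and -1.44 (adjusted p = 0.00695), levels 0.452 and 0.368 times that of control. Gnb3 minus Gnb2 within a library was -4.24 and -4.11 in control, -4.39 and -4.51 with empty vector, and -4.50 and -4.54 with dnMCUb. The gene lies at chr6:124834240-124840275 on the minus strand and has 10 exons.

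Of the receptor kinases, Grk5 was higher in T2D and Grk2 hardly differed. Grk5, which can also enter the nucleus and is known from hypertrophy, was at 8.94 and 8.90 in control, 9.20 and 9.33 with empty vector, and 9.23 and 9.10 with dnMCUb. All 4 T2D libraries exceeded both control libraries. The difference was 0.35 in T2D empty vector (SE 0.06, limma adjusted p = 0.435, from 0.0438 to 0.999 over the alternatives). For T2D dnMCUb it was 0.25 (SE 0.06, limma adjusted p = 0.213, from 0.0324 to 0.792). The authors' deposited table gave 0.71 for T2D empty vector (adjusted p = 0.00136), a level 1.64 times that of control. For T2D dnMCUb it gave 0.51 (adjusted p = 0.286). Grk5 lies at chr19:60889749-61092553 on the plus strand, over 16 exons of its M21 transcript, whose coordinates differ from the table's.

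Grk2, the main kinase of active beta receptors in the heart, was at 9.83 and 9.83 in control, 9.84 and 9.89 with empty vector, and 9.83 and 9.88 with dnMCUb. Its difference of T2D empty vector from control was 0.04 (SE 0.04, limma adjusted p = 0.903). Control and T2D dnMCUb 1 differed only in the third decimal, although by rank the groups did not overlap. Grk5 minus Grk2 within a library was -0.89 and -0.94 in control, -0.65 and -0.56 with empty vector, and -0.61 and -0.77 with dnMCUb, so the gap between the 2 kinases was narrower in all 4 T2D libraries. Grk3, a close relative of Grk2, and the arrestins Arrb1 and Arrb2 differed from control by -0.05, 0.04 and 0.02 in T2D empty vector, all with overlapping libraries.

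The receptor genes showed smaller differences in opposite directions. Adrb1 was at 8.14 and 8.19 in control, 8.07 and 8.08 with empty vector, and 8.02 and 8.12 with dnMCUb. All T2D libraries lay below control, but the difference of T2D empty vector, -0.09 (SE 0.05), did not pass (limma adjusted p = 0.805), and the authors' deposited table gave -0.24 (unadjusted p = 0.186). Adra1b was at 9.11 and 9.06 in control, 9.19 and 9.27 with empty vector, and 9.12 and 9.32 with dnMCUb. All T2D libraries lay above control, T2D dnMCUb 1 by only 0.01, and the T2D empty vector difference was 0.14 (SE 0.07, limma adjusted p = 0.805). Adra1a was at 9.38 and 9.26 in control, 9.55 and 9.52 with empty vector, and 9.21 and 9.50 with dnMCUb. T2D empty vector exceeded control by 0.21 (SE 0.09, limma adjusted p = 0.805, unadjusted p = 0.0472), while the T2D dnMCUb libraries were spread wider than both other groups. Adrb1 minus Adra1b within a library was -0.97 and -0.87 in control, -1.12 and -1.19 with empty vector, and -1.09 and -1.19 with dnMCUb, with no overlap between control and T2D. This lack of overlap follows from the order of the libraries for each gene, given above, and adds nothing to it. Adrb1 minus Adra1a overlapped between control and T2D. Adrb1 is a single exon at chr19:56722372-56724862 on the plus strand in the table, while its M21 transcript starts at 56722199. Adra1a lies at chr14:66635258-66733329 on the plus strand and Adra1b at chr11:43774606-43901210 on the minus strand.

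The comparison of T2D dnMCUb with T2D empty vector asks what the transgene changes in diabetic hearts. No member differed past the threshold. Limma called 0% of all genes at an adjusted p under 0.05, and at an unadjusted p under 0.05 it called none of the 9 members against 5.64% of all genes. Libraries did not overlap for 2 members, against 32.2% of all genes. These were Adcy1, 0.05 higher with dnMCUb (SE 0.04, limma adjusted p = 0.916), and Adra1a, 0.18 lower (difference -0.18, SE 0.09, limma adjusted p = 0.877). Without T2D dnMCUb 1, the library that stood apart, the Adra1a difference was -0.03. With each library left out in turn, the Adcy1 difference ran from 0.00899 to 0.0950. The Grk5 difference was -0.10 (SE 0.06, limma adjusted p = 0.888, from -0.17 to -0.03 with each library left out in turn) and that of Gnb3 -0.04 (limma adjusted p = 0.919). Adrb1 differed by -0.00, with its T2D dnMCUb libraries on either side of the T2D empty vector libraries. The authors' deposited table called none of the members here and 0.0311% of the genes with an adjusted p. The median size of the difference was 0.05 over the members and 0.04 over all genes. Markers of other cells differed between these groups: 5 of 5 measured red cell markers were higher with dnMCUb without overlap (median 0.88, all at an unadjusted p under 0.05). Their average deviation from the gene means was -0.45 and -0.41 with empty vector and 0.21 and 0.69 with dnMCUb. In the control libraries it was 0.38 and -0.42, so control 1 lay above T2D dnMCUb 1. Of 8 macrophage markers all were higher, 5 without overlap and 4 at an unadjusted p under 0.05 (median 0.16). Atrial markers had a median difference of 0.66, with 5 of 5 higher. For smooth muscle and pericyte markers it was 0.26 (4 of 6 higher) and for fibroblast markers 0.12 (6 of 6), all with overlapping libraries. In T2D dnMCUb 1 these last lists averaged 0.42 and 0.41 from their gene means, and in T2D dnMCUb 2 -0.20 and -0.13. No marker of the lists named here passed limma's adjusted threshold, and their part in the member values was not tested.

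Control libraries also stand in the comparison of T2D dnMCUb with control, which is therefore not independent of that of T2D empty vector with control. Limma called none of the 9 members at an adjusted p under 0.05, against 0.0687% of all genes. At an unadjusted p under 0.05 it called 3 members, Grk5 higher and Adcy1 and Gnb3 lower, against 11.4% of all genes. Libraries did not overlap for 6 members, 3 in each direction, against 42.9% of all genes. Without T2D dnMCUb 2, limma's adjusted p was 0.0247 for Adcy1, 0.0324 for Grk5 and 0.0170 for Gnb3. Without T2D dnMCUb 1 it was 0.0594, 0.346 and 0.0524. The authors' deposited table called 2 members, Adcy1 and Gnb3, against 0.357% of the genes with an adjusted p. For the mean of both T2D groups against control, limma called no member and 0% of all genes at an adjusted p under 0.05. For 5 members limma gave an unadjusted p under 0.05, against 9.69% of all genes. Libraries of 6 members did not overlap, against 21.9% of all genes: Adra1b, Grk2 and Grk5 were higher and Adrb1, Adcy1 and Gnb3 lower in all 4 T2D libraries. The pooled differences were -0.32 for Adcy1 (limma adjusted p = 0.0745, from 0.0141 to 0.762 over the alternatives), -0.27 for Gnb3 (limma adjusted p = 0.0745, from 0.0148 to 0.762) and 0.30 for Grk5 (limma adjusted p = 0.136, from 0.0226 to 0.874).

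**Figure D3:**
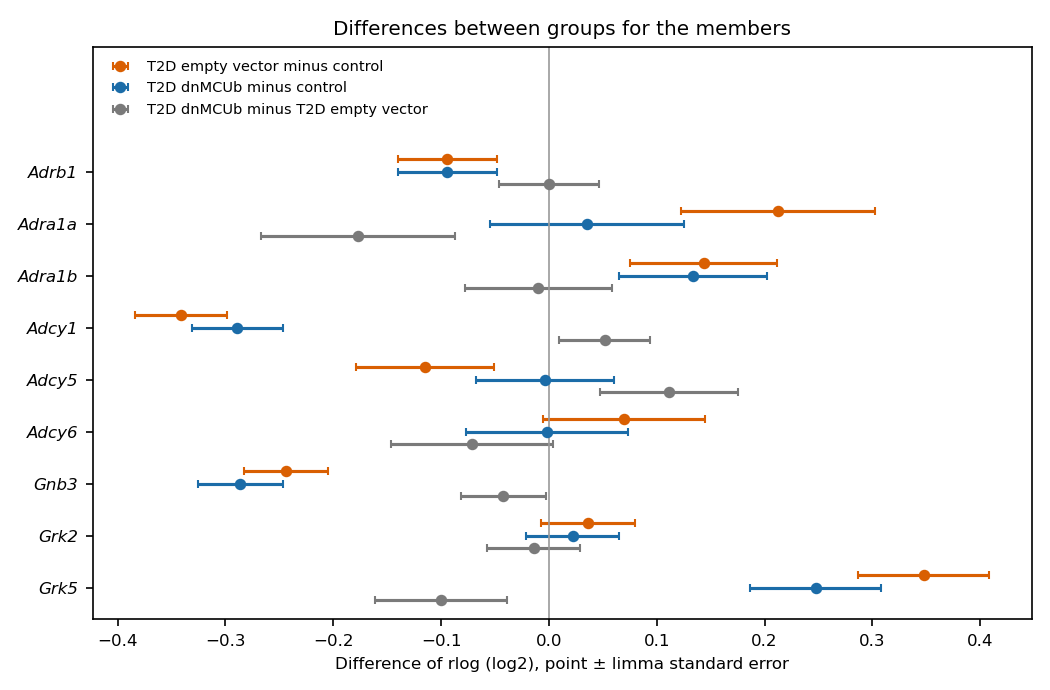
Difference in rlog (log2 scale, horizontal axis) of each member in T2D empty vector minus control, T2D dnMCUb minus control and T2D dnMCUb minus T2D empty vector, with standard errors from limma as bars. Adcy1, Gnb3 and Grk5 lie away from 0 in both comparisons with control, at -0.34, -0.24 and 0.35 for T2D empty vector, and at 0.05, -0.04 and -0.10 between the T2D groups.

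The size of these differences depends on the scale. For Adcy1 in T2D empty vector against control, the rlog difference was 0.314 of the log2 fold change that the authors' deposited table gives, for Grk5 0.489 and for Gnb3 0.213. The median was 0.582 over genes with an authors' adjusted p under 0.05. Gnb3, the member with the lowest mean rlog, had the lowest ratio of these. The order of the members thus differed between the scales: Grk5 had the largest rlog difference, and the authors' deposited table gave Gnb3 the largest fold change.

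**Figure D4:**
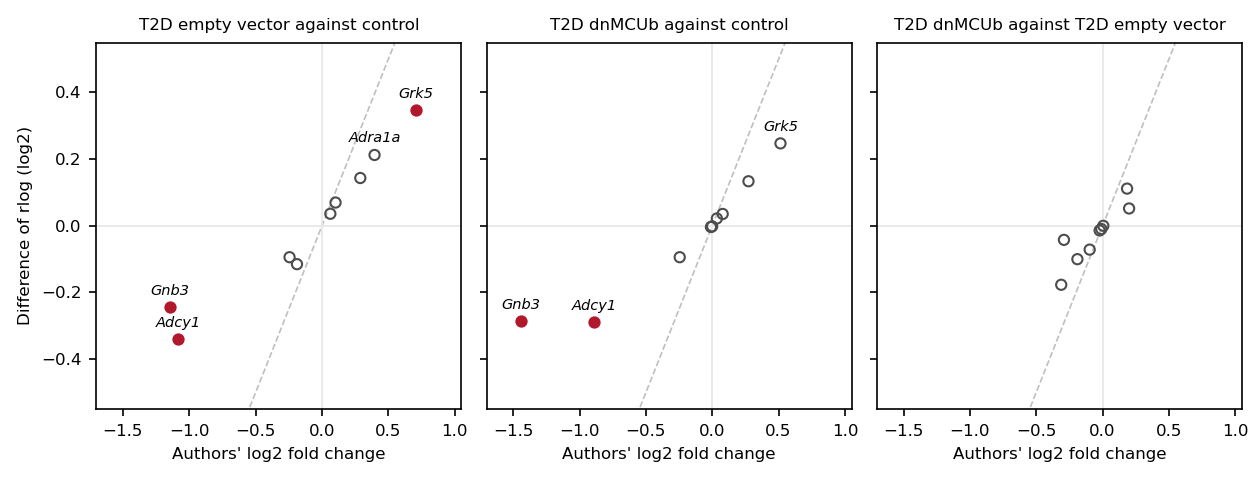
The log2 fold change in the authors' deposited table (horizontal axis) against the rlog difference (vertical axis) of the 9 members in each comparison, with a dashed line of equality and red points at an authors' adjusted p under 0.05. Points of Adcy1 and Gnb3 lie far from the line, at -1.09 against -0.34 and -1.14 against -0.24 in T2D empty vector.

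The rest of the pathway was described from 14 lists with 178 further genes, of which 133 passed the filter. In T2D empty vector against control, limma called none of them. At an unadjusted p under 0.05 there were 9 higher and 5 lower, where 6.13% of all genes were called. Libraries did not overlap for 45.1% of them, close to the 42.4% of all genes. Their median difference was 0.01, against -0.00 over all genes tested. Upstream of the receptor, 7 of 14 genes for noradrenaline synthesis, storage and clearance passed the filter. Slc22a3, a transporter that clears catecholamines outside neurons, was at 7.68 and 7.60 in control and 7.73 and 7.74 with empty vector, a difference of 0.10 (limma adjusted p = 0.805). Dbh, which makes noradrenaline from dopamine, differed by 0.06 with overlapping libraries (limma adjusted p = 0.856). Among 8 measured receptors of other hormones that couple to cyclase, 5 were higher without overlap (42.4% of all genes were apart in either direction), led by the parathyroid hormone receptor Pth1r at 0.18 (limma adjusted p = 0.626). The muscarinic receptor Chrm2, which opposes cyclase, differed by -0.14 (limma adjusted p = 0.805).

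Downstream of cyclase, phosphodiesterases degrade cyclic nucleotides, and none passed limma's adjusted threshold. Of 23 genes in that list, which includes the Epac sensors of cyclic AMP, 3 were higher and 1 lower at an unadjusted p under 0.05, against 6.13% of all genes. Pde1c, which calcium and calmodulin stimulate, was at 9.49 and 9.39 in control, 9.02 and 9.09 with empty vector, and 9.01 and 9.30 with dnMCUb. It was lower in all 4 T2D libraries, with a T2D empty vector difference of -0.39 (SE 0.09, limma adjusted p = 0.581). Pde11a was at 6.74 and 6.74 in control, 6.96 and 6.99 with empty vector, and 6.93 and 7.05 with dnMCUb. All T2D libraries were higher, by 0.24 in T2D empty vector (SE 0.04, limma adjusted p = 0.435).

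In the list of PKA subunits, anchors and inhibitors, 17 of 19 genes passed the filter, and 7 were lower and 2 higher in T2D empty vector without overlap, where 42.4% of all genes were apart. Akap5, which anchors PKA near beta receptors and cyclases, was at 7.84 and 7.93 in control, 7.64 and 7.72 with empty vector, and 7.60 and 7.54 with dnMCUb. Every T2D library lay below both control libraries, and the T2D empty vector difference was -0.20 (SE 0.05, limma adjusted p = 0.622). Prkar1a, a regulatory subunit of PKA, differed by -0.18 (limma adjusted p = 0.759). Among 11 measured myocyte substrates of PKA, 8 were lower, where 6781 of all 13094 genes tested were lower. The lowest was Rrad, a small GTPase that restrains the L-type calcium channel, at -0.35 (SE 0.09, limma adjusted p = 0.646). The median of that list was -0.06, and the myocyte markers had a median of -0.17 in the same comparison. The lists share genes, so these medians are not independent. The part of those markers in the list's values was not tested.

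Between the T2D groups, 3 of these 133 genes were higher and 2 lower with dnMCUb at an unadjusted p under 0.05, a smaller share than the 5.64% of all genes, and limma called none at an adjusted p. The genes named here are those of lowest p in their lists. Rgs2, which speeds the shutdown of Gq, was at 8.42 and 8.35 with empty vector and 8.50 and 8.86 with dnMCUb. The difference was 0.30 (SE 0.11, limma adjusted p = 0.869), but control, at 8.63 and 8.44, overlapped T2D dnMCUb. Dusp1, a phosphatase induced by cyclic AMP, was at 9.76 and 9.72 with empty vector and 9.90 and 10.23 with dnMCUb, a difference of 0.33 (SE 0.12, limma adjusted p = 0.869). Ryr2, the calcium release channel of the sarcoplasmic reticulum, differed by -0.23 (SE 0.10, limma adjusted p = 0.869). It was at 15.91 and 15.94 with empty vector, 15.61 and 15.78 with dnMCUb, and 15.85 and 15.83 in control. Its lowest value was in T2D dnMCUb 1, the library that stood apart.

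**Figure D5:**
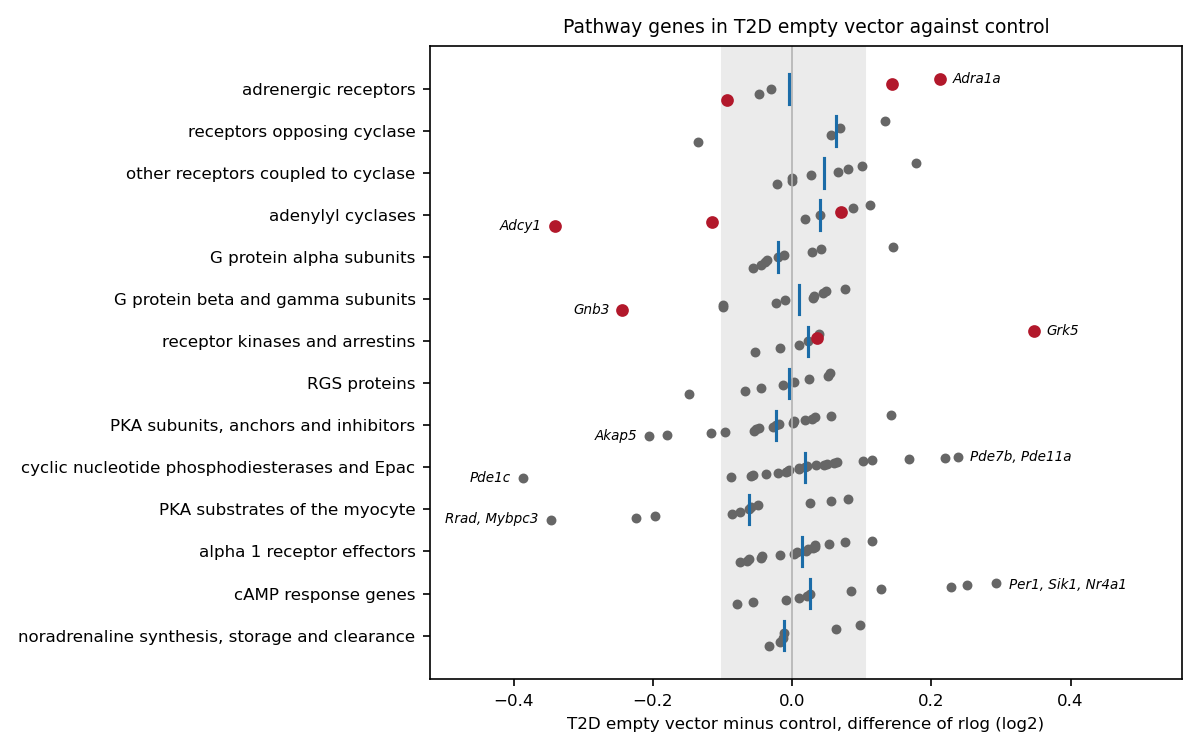
Difference in rlog of T2D empty vector minus control (log2 scale, horizontal axis) for tested genes of the 14 pathway lists, with members in red, the list median as a blue bar and the 5th to 95th percentile of all genes tested, -0.10 to 0.10, shaded. Most genes lie within the band, and Adcy1 at -0.34, Gnb3 at -0.24 and Grk5 at 0.35 lie outside it. So do the members Adra1a at 0.21, Adra1b at 0.14 and Adcy5 at -0.12. Other genes lie outside it too, among them Pde1c at -0.39 and Rrad at -0.35.

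Across the 6 libraries, the values of Adcy1 and Gnb3 ran in parallel (Pearson's r = 0.956) and those of Adcy1 and Grk5 in opposite directions (r = -0.966). Adrb1 ran with Gnb3 (r = 0.871), and Adra1a with Adcy6 (r = 0.796). The 6 points fall in 3 groups and share the scaling of the libraries, so these values are a description. Of 13093 other genes, those most like Adcy1 were Ttc30a1 (r = 0.992), Actr1a (r = 0.991) and Morc4 (r = 0.985), and 38 genes had an r over 0.95. Those most like Gnb3 were Ints10 (r = 0.997), Pip5k1b (r = 0.993) and Hmgcs1 (r = 0.990), and 72 genes had an r over 0.95. Differences between groups were smaller in these genes: Ttc30a1 was at 7.25 and 7.27 in control and from 7.13 to 7.16 in the 4 T2D libraries.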

How the data were processed

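Per the labels' protocols, heart RNA was depleted of ribosomal RNA and made into stranded Illumina libraries. Tools listed by the submitters' processing notes, with no role given, are DESeq2, STAR 2.5.2a and bcl2fastq 2.20.0.422, and the builds listed are GRCm38, mm10 and hg38. How reads were counted, with which strand setting and filter, is not given in the sources used here. The authors deposited 1 table of rlog values (log2 scale) per gene and library, with log2 fold changes, p-values and adjusted p-values for 3 comparisons. All 6 value columns matched a label and 0 were left unused. Depth is unknown and no counting interval is given.

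Of 54352 rows, 22778 were listed at 0 in all libraries, and 13094 with a mean rlog of at least 5 were tested. Differences were tested with limma 3.58.1 (R 4.3.3) on all 3 groups, with a mean-variance trend, 3 residual degrees of freedom and Benjamini-Hochberg adjustment at 0.05. The procedure was run on simulated data to check the bias of its estimates and its false calls. Its power at the size of the member differences is not reported here. Libraries are called apart where the ranges of the groups do not overlap. Members and gene lists were chosen with earlier results of these data known. All 9 members are named, with the genes of lowest p in each pathway list (3 for T2D empty vector against control, 2 for T2D dnMCUb against T2D empty vector) and the 3 genes most correlated with Adcy1 and with Gnb3, not all of them printed. Some genes of the lists are not reported here by name or drawn, and counts and medians include them. Alternatives were no filter, a filter at 7, no trend, median centring, library weights, a replicate block, only the groups compared, and each library left out.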

Additional observations from a re-analysis of the deposited data

How the results depend on the processing

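With 2 libraries per group, few calls are firm. Outside leaving out a library, 239 member differences were recomputed: 234 kept direction and side of the threshold, 5 passed it, and 0 reversed. For T2D empty vector against control, limma called 0 genes in the fit reported. Estimated library weights gave 5 genes with 1 member (Adcy1), and a fit of only the groups compared gave 30 with 2 (Adcy1 and Grk5). For T2D dnMCUb against control, limma called 9 genes. It called 16 with weights, 29 with a filter at 7 (where Gnb3 is not tested), and 0 with no filter, no trend, centred libraries, only the groups compared or the replicate block. The pooled comparison gave 0, and 40 genes with 2 members (Adcy1 and Gnb3) with weights.

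Leaving out 1 library at a time, with a lone library assumed to vary like the other groups, gave 0 to 30 genes and 0 to 2 members for T2D empty vector against control (30 and 2 without either T2D dnMCUb library). T2D dnMCUb against T2D empty vector gave 0 to 14 genes (14 without T2D dnMCUb 1) and 0 members. T2D dnMCUb against control gave 0 to 743 genes and 0 to 3 members (743 genes with Adcy1, Grk5 and Gnb3 without T2D dnMCUb 2, 89 genes without T2D dnMCUb 1, 1 without control 2 and 0 without control 1 or either T2D empty vector library). The pooled comparison gave 0 to 314 genes and 0 to 3 members (314 and 3 without T2D dnMCUb 2, 79 and 2 without T2D dnMCUb 1). The cause was not tested. Of 216 member differences, 15 reversed, all of them uncalled. Their ranges were -0.0186 to 0.0866 for Adcy6 pooled. Against control in T2D dnMCUb they were -0.11 to 0.18 for Adra1a, -0.0267 to 0.0196 for Adcy5 and -0.11 to 0.10 for Adcy6. Between the T2D groups they were -0.0497 to 0.0496 for Adrb1, -0.109 to 0.0898 for Adra1b, -0.177 to 0.0337 for Adcy6 and -0.0382 to 0.00993 for Grk2. The differences of Adcy1, Grk5 and Gnb3 between T2D empty vector and control ran from -0.38 to -0.30, 0.28 to 0.41 and -0.28 to -0.21.

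Same-numbered libraries did not deviate in the same direction (correlations of -0.09, -0.01 and -0.51). At 2 libraries per group, these correlations cannot settle whether the numbers pair the libraries. With the replicate block limma called 0 genes and 0 members in all 4 comparisons. Crossing the numbers of the T2D groups, chosen after seeing the data, called 0 genes.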
